A study of Rattus norvegicus with 20 samples.

Results

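Gene expression in rat liver after the 2 higher doses of triphenyl phosphate was compared with expression after the 3 lower doses, so that dosed samples were set against dosed samples. Arrays were chosen by their dose labels alone: the higher pool held the 6 arrays of the 440 and 881 mg/kg groups, and the lower pool held the 9 arrays of the 55, 110 and 220 mg/kg groups, together 15 of the 20 arrays of the study. The other 5 arrays came from vehicle animals and entered no difference; their levels are quoted beside the results. All 6 groups were male rats of the Harlan Sprague-Dawley strain that were gavaged with corn oil on 4 consecutive days, without the compound in the vehicle group and with 55, 110, 220, 440 or 881 mg/kg body weight of it in the 5 dosed groups of 3 arrays each, and liver was collected on day 5. The labels name no genotype and no age. The sample labels write 440 mg/kg where the design text writes 441 mg/kg, and the label is followed here. Groups of 3 rats are described in the treatment text, but 5 arrays carry the vehicle label. Nothing in the labels ties the arrays to separate animals, so the p-values measure only the spread between these samples, which may be technical. The design implies the question of which liver genes differ within the dosed range, between its upper and its lower part.

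Triphenyl phosphate is an aryl organophosphate added to plastics as a flame retardant. The liver answers many foreign lipophilic compounds through the nuclear receptors CAR and PXR, which raise oxidising enzymes, conjugating enzymes and export pumps, and through NRF2, a transcription factor released under oxidative or electrophilic stress that raises glutathione and quinone metabolism. Synthesis of cholesterol and fatty acids in hepatocytes is set largely by the SREBP transcription factors and follows feeding. In the rat, pulsed growth hormone in males keeps a group of liver genes at a male-biased level, and hepatocytes near the central vein differ in their enzymes from those near the portal tract.

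Levels are log2 expression values, so a difference of 1 is a 2-fold change, and a level is compared only within a gene. Differences are the mean of the higher pool minus the mean of the lower pool, given ± the standard error. A gene is said to have risen, fallen or changed at a Benjamini-Hochberg adjusted p under 0.05 from limma over all 14217 genes, and adjusted p-values below are of this kind unless stated otherwise. Markers of hepatocytes were high on every array, with a list mean between 14.20 and 14.33. One array stood apart, 881 mg/kg replicate 2: its Gapdh control probe sets read 5.24 log2 units higher at the 3' than at the 5' end, against 0.849 to 1.31 on the other 5 higher-dose arrays and 0.814 to 1.64 on the 9 lower-dose arrays, and its median correlation with the other arrays was 0.983 against 0.990 to 0.994. On that array the beta-actin difference, 3.47, was also above the other higher-dose arrays (2.08 to 2.61) and the lower-dose arrays (1.83 to 2.72). The hexokinase difference, 1.47, was instead below both sets (1.54 to 2.055 and 1.56 to 1.94), so the controls did not all go the same way. A high 3' to 5' difference is a sign of degraded RNA. With all arrays the Gapdh difference between the pools had an exact permutation p of 0.2821, and without that array of 0.7443 (two-sided). The array medians were lower by 0.02 in the higher pool (difference -0.0229, exact permutation p = 0.0034; p = 0.013 without that array). Results are therefore also given without 881 mg/kg replicate 2.

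Between the pools 884 genes changed, 6.22% of those tested: 493 rose (3.47%) and 391 fell (2.75%). Without 881 mg/kg replicate 2 the counts were 785 (5.52%), 426 (3.0%) and 359 (2.53%), and 621 of the 884 genes were called in the same direction there. Most differences were small, with a median size of 0.37 among changed genes; 46 genes (0.324%) changed by at least 1 log2 unit, 26 up and 20 down. All 6 higher-dose arrays lay above all 9 lower-dose arrays for 122 genes (0.858%) and below all of them for 83 (0.584%), and 192 of these 205 genes (1.44%) were called changed, 119 up (0.837%) and 73 down (0.513%). Centring each array on its median gave 635 genes that rose of 953 changed, 66.6% up against 55.8% in the uncentred values. The count rested in part on single arrays: it was 458 without 440 mg/kg replicate 2, 541 without 440 mg/kg replicate 3 and 543 without 110 mg/kg replicate 1. Over all genes the median difference was 0.0014, and the median standard error of 0.07 shows the precision that this number of arrays gives. Counts of called members in the gene lists below are to be read beside 6.22% of all genes changed, 3.47% up and 2.75% down.

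The vehicle arrays give the levels without the compound. For 321 of the 493 genes that rose (65.1%) the vehicle mean lay beyond the lower pool, on the side away from the higher doses, so that the lower pool stood between vehicle and the higher doses. For 112 genes it lay between the pools nearer the lower one, for 35 between them nearer the higher one, and for 25 beyond the higher doses. Among the 391 genes that fell these counts were 213, 101, 43 and 34. Over all genes tested the shares were 52.1%, 13.2%, 9.3% and 25.4%. These positions are a description with no test.

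The genes with the largest rises among those whose arrays did not overlap were Noct, Ces2c and Gstp1, and those with the largest falls were Stac3, Obp3 and Slc6a6. Noct encodes nocturnin, a phosphatase acting on NADP(H) whose liver expression has a daily rhythm. Its level on the 6 higher-dose arrays was 7.26, 8.40 and 9.45 (lowest, median and highest), against 5.47, 6.29 and 6.96 on the 9 lower-dose arrays and 5.85 to 6.79 in vehicle. Every higher-dose array was therefore above every lower-dose and vehicle array. The difference was 2.10 ± 0.26, a 4.28-fold rise (adjusted p = 0.000787), and 1.91 without 881 mg/kg replicate 2. The 440 mg/kg arrays (9.45, 8.34 and 8.50) were mostly higher than the 881 mg/kg arrays (7.37, 8.46 and 7.26), and 881 minus 440 mg/kg was -1.07 (95% interval -1.93 to -0.20), which did not pass the test (adjusted p = 0.41).

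**Figure D1:**
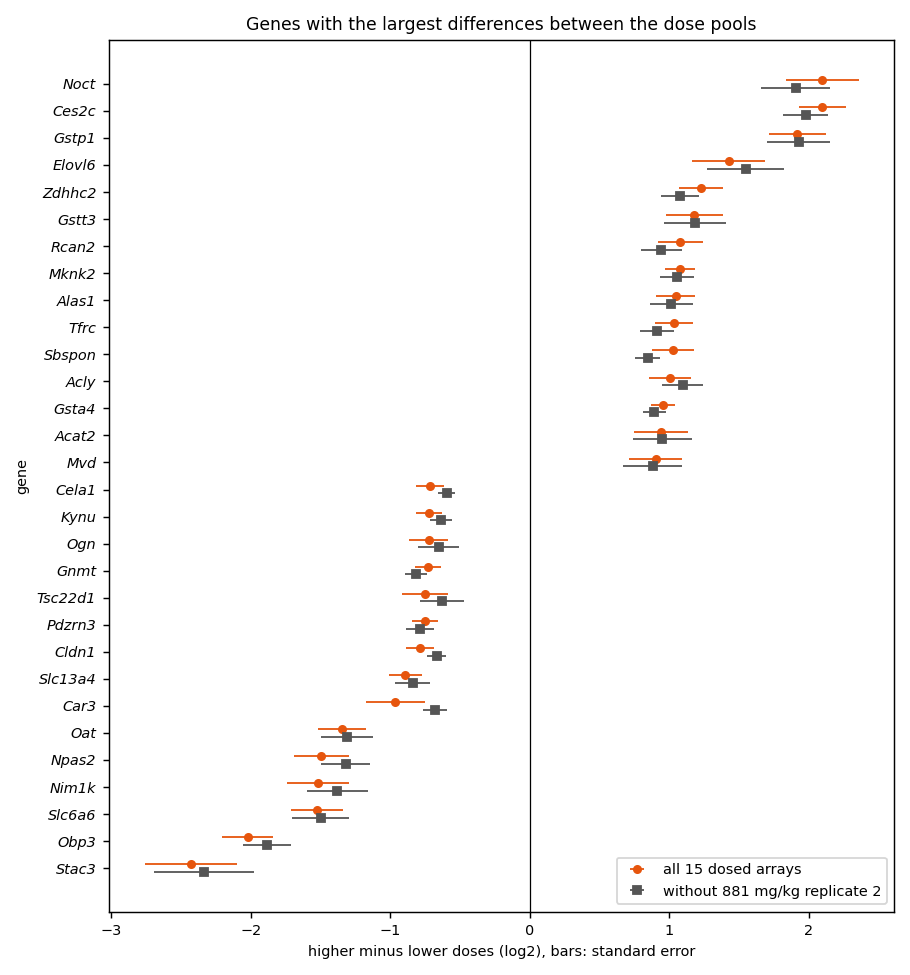
Differences in log2 expression (higher-dose pool minus lower-dose pool, x axis) for the 15 genes with the largest rises and the 15 with the largest falls among changed genes whose pools do not overlap; orange points use all 15 dosed arrays, grey squares leave out 881 mg/kg replicate 2, and bars are standard errors. The values run from 2.10 for Noct to -2.43 for Stac3, and each gene keeps its direction without that array.

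Genes induced through CAR and PXR were among the clearest rises. Of 25 measured targets, 10 rose and none fell (11 and 0 without 881 mg/kg replicate 2), and 22 lay above 0, with a median difference of 0.37 (0.30 at 440 mg/kg and 0.41 at 881 mg/kg, each against the lower pool) beside 0.0014 over all genes. Called members made up 40.0% of the list, against 6.22% of all genes tested. Cyp2b1 and Cyp2b2, also listed, were not among the measured genes, and the member Cyp3a9 lay below 0 without a call. Abcc2, Abcc3, Gsta3, Gstm1 and Ephx1 also stand on the NRF2 list, so the counts of the lists share genes. The mean level of the CAR and PXR list ran from 11.25 to 11.73 on the higher-dose arrays, from 10.61 to 11.15 on the lower-dose arrays and from 10.44 to 10.60 in vehicle. Ces2c, a carboxylesterase that hydrolyses ester drugs, lay at 11.82, 12.51 and 13.33 at the higher doses (lowest, median and highest), at 9.79, 10.40 and 11.37 at the lower doses and at 8.75 to 8.92 in vehicle. The 3 sets of arrays formed a ladder without overlap. Its difference was 2.10 ± 0.17, a 4.28-fold rise (adjusted p = 3.76e-05), and 1.98 without 881 mg/kg replicate 2. It was the only one of 25 measured carboxylesterases and other serine hydrolases that rose, while Lpl, lipoprotein lipase, fell (-0.58 ± 0.10, adjusted p = 0.0041); the list's median was 0.07, and without that array 2 members rose and 1 fell.

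Abcc3, a pump that exports glucuronides and bile acids into blood, lay at 9.36, 10.18 and 10.38 at the higher doses, at 6.52, 8.36 and 9.57 at the lower doses and at 6.36 to 6.83 in vehicle. Within the lower pool its level spread widely: the arrays read 6.52, 7.24 and 7.21 at 55 mg/kg, 6.93, 8.91 and 8.36 at 110 mg/kg and 9.18, 8.48 and 9.57 at 220 mg/kg, the last of these above the lowest higher-dose array. All arrays at 220 mg/kg lay above those at 55 mg/kg, but limma's F test among the lower doses did not call it (smallest adjusted p of any gene 0.9997). The difference between the pools was 2.02 ± 0.26 (adjusted p = 0.000795; 1.99 without 881 mg/kg replicate 2). Akr1b7, an aldo-keto reductase, had the largest rise of all genes, 2.90 ± 0.59 (adjusted p = 0.0114; 2.63 without that array), but its pools overlapped. It stood at 9.86, 10.62 and 8.21 at 881 mg/kg, at 6.60, 8.03 and 4.02 at 440 mg/kg, at 4.31, 6.33 and 7.37 at 220 mg/kg and at 4.39 to 4.92 in vehicle. Thus 1 array at 440 mg/kg was no higher than vehicle and 2 at 220 mg/kg were well above it. Aldh1a1, a retinaldehyde dehydrogenase, rose by 0.87 ± 0.14 (13.63, 13.89 and 13.95 against 12.05, 13.10 and 13.43; adjusted p = 0.00247).

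**Figure D2:**
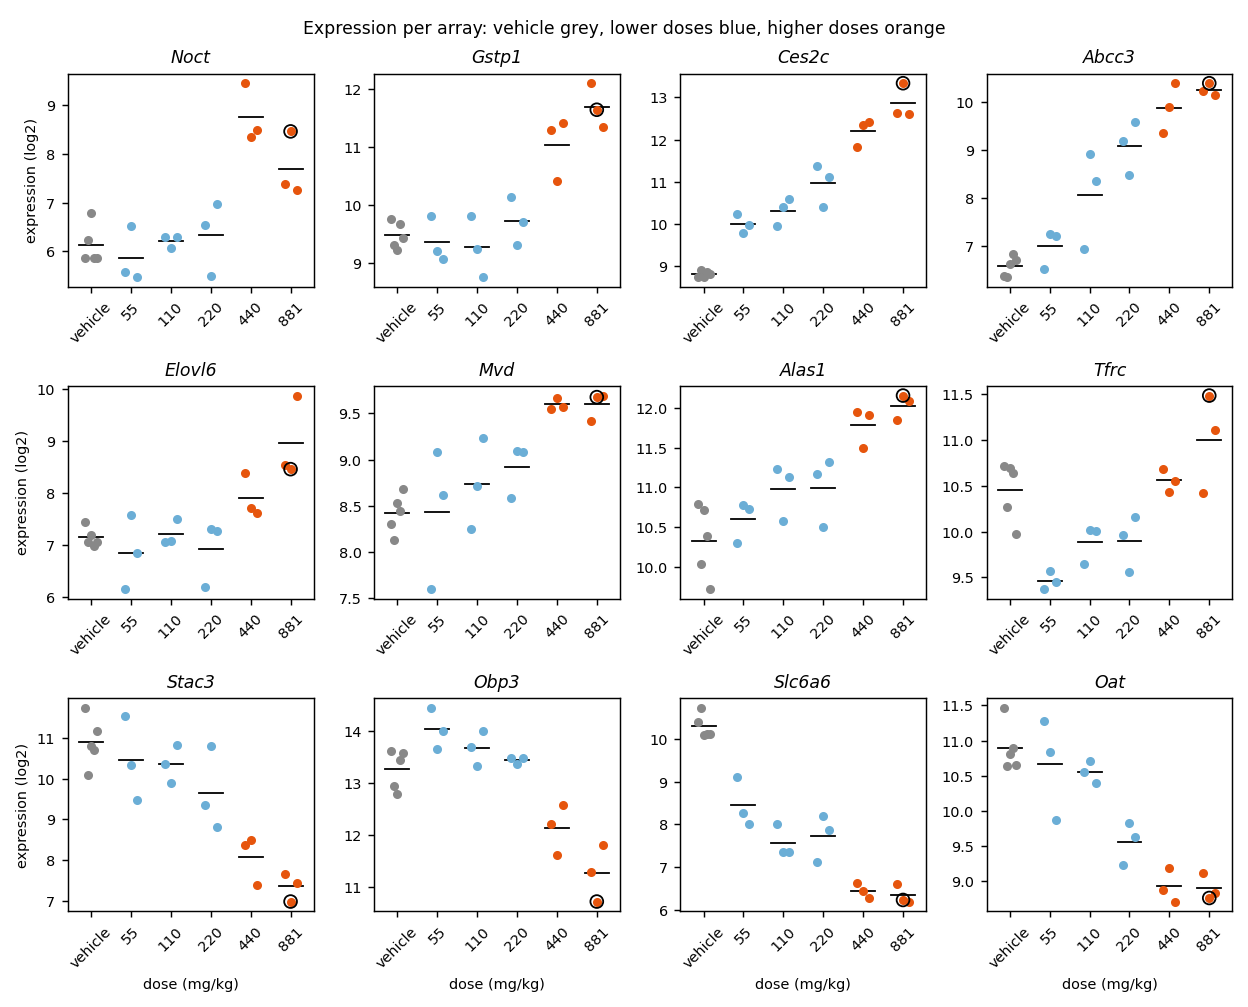
Log2 expression of 12 genes on each of the 20 arrays (y axis) by dose (x axis, mg/kg); grey points are vehicle, blue the 3 lower doses and orange the 2 higher doses, short bars are group means, and the circled point is 881 mg/kg replicate 2. The higher-dose arrays of Noct, Gstp1 and Ces2c lie above and those of Stac3, Obp3 and Slc6a6 below every lower-dose array, while Abcc3 already climbs within the lower doses.

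The list for the receptor AhR was short, holding targets with Ahr itself and Nfe2l2, and its members did not move together. Of 9 measured, 2 rose and 1 fell, with a median of 0.008. Cyp1a1, the most inducible AhR target, was between 5.51 and 5.84 in vehicle and between 5.88 and 6.60 at the lower doses. It reached 6.28, 7.63 and 7.99 at 440 mg/kg and 7.42, 9.43 and 8.04 at 881 mg/kg. The lowest higher-dose array was thus within the lower-dose range, and the highest was 881 mg/kg replicate 2. It rose by 1.67 ± 0.28 (adjusted p = 0.00374; 1.39 without that array). Cyp1a2, a constitutive enzyme of pericentral hepatocytes in the same family, fell by 0.46 on the log2 scale (12.54, 12.64 and 12.87 against 12.65, 13.25 and 13.32; adjusted p = 0.00102).

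NRF2 targets rose in number: of 31 measured, 15 rose, 1 fell and 27 lay above 0, with a median of 0.41 (0.36 at 440 mg/kg and 0.58 at 881 mg/kg against the lower pool). Without 881 mg/kg replicate 2 the counts were 18 and 1. With all arrays 51.6% of the list was called, against 6.22% of all genes tested. Gstp1, a glutathione transferase that is low in normal rat hepatocytes, lay at 10.41, 11.37 and 12.10 at the higher doses, at 8.76, 9.32 and 10.14 at the lower doses and at 9.23 to 9.76 in vehicle. The lower-dose arrays thus straddled the vehicle arrays, and every higher-dose array was above both. Its difference was 1.92 ± 0.20, a 3.78-fold rise (adjusted p = 0.000279), and 1.93 without that array. Hmox1, heme oxygenase, rose by 1.06 ± 0.14 (adjusted p = 0.000795; 0.94 without that array), with 10.34, 9.85 and 10.13 at 440 mg/kg and 10.43, 11.29 and 10.76 at 881 mg/kg against 9.18, 9.26 and 9.89 at the lower doses. Nqo1, a quinone reductase, rose by 1.04 ± 0.20 (adjusted p = 0.00882), although its highest lower-dose array, 9.89, was above all but 2 of the higher-dose ones. Gclc and Gclm, the subunits of the rate-limiting enzyme of glutathione synthesis, rose by 0.80 ± 0.08 (adjusted p = 0.000252) and 0.71 ± 0.11 (adjusted p = 0.00248). Another probe set of Gclc was not called (0.46, adjusted p = 0.215).

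The member that fell was Osgin1, a growth inhibitor induced by oxidative stress, and only its 440 mg/kg arrays were low, as given with the single doses. Among 22 measured glutathione transferases 6 rose and none fell, with a median of 0.13 and the same counts without 881 mg/kg replicate 2. Beside Gstp1 these included Gsta3 (1.83 ± 0.35, adjusted p = 0.00773), Gstt3 (1.18 ± 0.20, adjusted p = 0.00449) and Gsta4 (0.96 ± 0.09, adjusted p = 6.9e-05). Gsta4 rose from 11.48, 11.75 and 11.96 at the lower doses to 12.26, 12.69 and 13.16 at the higher doses, with vehicle at 11.39 to 11.53. The conjugating enzymes split: of 23 measured glucuronosyltransferases and sulfotransferases, 6 rose and 5 fell, with a median of 0.08 (4 and 4 without that array). Ugt2b7 rose by 0.81 ± 0.22, a call that ended on leaving out any 1 of 12 of the 15 arrays (highest adjusted p = 0.11), and Sult1c2 fell (-0.91 ± 0.22), a call that ended on leaving out replicate 1 at 110 mg/kg, replicates 1 or 3 at 440 mg/kg, or replicate 3 at 881 mg/kg (highest adjusted p = 0.0615). Gsta, Ugt2b, Sult1c and globin genes have close copies, and probes may not separate them.

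The promoters of NRF2 targets are shown because many members rose together and the factor binds a known antioxidant response motif. Windows of 300 bases, from 250 before to 50 after each start in RefSeq (build GRCr8), were found for 27 of the 31 measured targets. The letters TGACNNNGC stood on either strand in 7 of them (25.9%), and in 6 of the 13 risen targets with a window, against 14.4% of 11733 measured genes with a window and 12.1% of all 33469 windows. A match is a description and not a binding site. The 4 risen targets whose match and its surroundings lie before the start are given below in 41 bases each, read 5′ to 3′ along the gene's strand, with the fixed letters of the match in capitals and the 3 free positions inside it in lower case. They come from chr1:210769742-210769782 on the minus strand (Gstp1), chr8:96540387-96540427 on the minus strand (Me1), chr2:213031947-213031987 on the plus strand (Gclm) and chr14:43202295-43202335 on the plus strand (Ugdh). The matches begin at -61, -167, -172 and -207 relative to the start.
Gstp1: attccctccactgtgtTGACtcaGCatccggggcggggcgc
Me1: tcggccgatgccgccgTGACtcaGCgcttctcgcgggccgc
Gclm: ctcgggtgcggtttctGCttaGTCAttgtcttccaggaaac
Ugdh: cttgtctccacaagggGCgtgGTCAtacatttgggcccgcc
In Gstp1 and Me1 the match reads along the gene's strand and has the same free letters, and in Gclm and Ugdh it lies on the opposite strand. Me1, malic enzyme, which supplies NADPH, rose by 1.14 ± 0.19 (adjusted p = 0.00422), and Ugdh, which makes the sugar donor for glucuronidation, by 0.43 ± 0.08 (adjusted p = 0.0066).

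All 22 measured genes of cholesterol synthesis, its enzymes with the regulators Srebf2, Scap and Insig1 and the sterol carrier Stard4, lay above 0, and 9 rose and none fell, with and without 881 mg/kg replicate 2. Their median was 0.46, with 0.38 at 440 mg/kg and 0.52 at 881 mg/kg against the lower pool. The list mean ran from 10.82 to 11.05 on the higher-dose arrays, from 9.92 to 10.75 on the lower-dose arrays and from 10.03 to 10.55 in vehicle, so that the lower-dose arrays varied far more among themselves. Mvd, mevalonate diphosphate decarboxylase, was nearly level at the higher doses (9.55, 9.67 and 9.57 at 440 mg/kg, and 9.42, 9.68 and 9.69 at 881 mg/kg) against 7.6, 8.72 and 9.24 at the lower doses and 8.13 to 8.69 in vehicle. It rose by 0.90 ± 0.19 (adjusted p = 0.0148; 0.88 without that array). Acat2, which makes the first intermediate, rose by 0.94 ± 0.19 (adjusted p = 0.0117), and Lss, lanosterol synthase, by 0.80 ± 0.15 (adjusted p = 0.00618), though another probe set of Lss was not called (0.41, adjusted p = 0.0801).

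Cholesterol genes often carry the CCAAT letters bound by the factor NF-Y, so the same windows were searched for them. They stood on either strand in 14 of the 18 windows found (77.8%), and in 7 of the 9 members that rose, against 37.3% of measured genes and 37.5% of all windows. The letters TCACCCCAC, one form of the sterol element, were in 0 of the 18 windows and in 0.4% of those of measured genes. Where a member had several matches, the one nearest before the start was taken. The 5 risen members for which that match and its surroundings lie wholly before the start are given in 41 bases each with the match in capitals; in Mvd and Mvk the stretch around it runs past the start. The stretches lie at chrX:16971359-16971399 on the plus strand (Ebp), chr17:66547537-66547577 on the minus strand (Idi1), chr20:12118290-12118330 on the minus strand (Lss), chr16:29747027-29747067 on the plus strand (Msmo1) and chr8:51538342-51538382 on the minus strand (Sc5d).
Ebp: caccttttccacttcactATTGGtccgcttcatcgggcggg
Idi1: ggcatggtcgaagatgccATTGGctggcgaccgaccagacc
Lss: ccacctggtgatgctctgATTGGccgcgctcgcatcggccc
Msmo1: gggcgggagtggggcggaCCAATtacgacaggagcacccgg
Sc5d: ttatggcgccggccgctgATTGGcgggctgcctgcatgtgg
The match lies on the gene's own strand in Msmo1 and on the opposite strand in the other 4. Of these genes, Idi1, isopentenyl diphosphate isomerase, rose most after Lss (0.72 ± 0.17, adjusted p = 0.0269; another probe set 0.52, adjusted p = 0.0998). Without 1 array the calls of Idi1, Msmo1 and Sc5d ended for 4, 5 and 9 of the 15 arrays (highest adjusted p = 0.068, 0.0662 and 0.102).

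Fatty acid and triglyceride synthesis moved in the same direction in part of its members: of 32 measured, 13 rose and 1 fell, with a median of 0.14 (12 and 1 without 881 mg/kg replicate 2). Elovl6, which elongates saturated fatty acids, lay at 7.61, 8.42 and 9.87 at the higher doses, against 6.16, 7.08 and 7.57 at the lower doses and 6.98 to 7.45 in vehicle. It rose by 1.43 ± 0.26 (adjusted p = 0.0068; 1.55 without that array), and the pools came within a few hundredths of each other. Acly, which supplies cytosolic acetyl-CoA, rose by 1.01 ± 0.15 (12.09, 12.27 and 12.99 against 10.87, 11.47 and 11.84; adjusted p = 0.00167). Fasn, fatty acid synthase, rose by 1.01 ± 0.18 (11.22, 11.56 and 12.07 against 9.78, 10.71 and 11.24; adjusted p = 0.00594). The mean of the lower pool lay below that of vehicle for both (differences -0.31 and -0.05), vehicle ranging from 11.42 to 12.05 for Acly and from 10.25 to 11.31 for Fasn. Plin2, a lipid droplet coat protein, was the member that fell (-0.82 ± 0.15, adjusted p = 0.00554), from 12.98 to 13.53 in vehicle through 12.03, 12.32 and 12.67 at the lower doses to 10.84, 11.55 and 12.13 at the higher doses. Scd, stearoyl-CoA desaturase, was not called (-1.0 ± 0.39, adjusted p = 0.147): it read 6.21, 7.71 and 9.36 at the higher doses and 8.04, 8.91 and 10.03 at the lower doses, all below the vehicle range of 10.24 to 12.15.

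Other metabolic lists moved less. Of 40 measured PPAR alpha targets 2 rose and 4 fell (median -0.07), with Cyp4a8, a fatty acid hydroxylase, up by 1.18 ± 0.21 (adjusted p = 0.0061). In gluconeogenesis and fasting response 1 of 21 rose and 1 fell (median -0.03), the latter being Pc, pyruvate carboxylase (-0.37 ± 0.06, adjusted p = 0.00472). Glycolysis had 1 rise among 18 (median 0.04), that of Aldoa, whose call ended on leaving out any 1 of 13 of the 15 arrays (highest adjusted p = 0.119). Of 40 measured subunits of the respiratory chain and ATP synthase 2 rose, and 0 without 881 mg/kg replicate 2 (median 0.02).

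Heme synthesis and iron uptake included a clear pair of rises. Alas1, which sets the rate of hepatic heme synthesis, lay at 11.50, 11.93 and 12.15 at the higher doses, at 10.30, 10.77 and 11.32 at the lower doses and at 9.72 to 10.79 in vehicle. It rose by 1.05 ± 0.14 (adjusted p = 0.000863; 1.02 without 881 mg/kg replicate 2). Tfrc, the transferrin receptor, was low only at the lower doses: 9.37, 9.65 and 10.16 there, against 10.42, 10.62 and 11.49 at the higher doses and 9.98 to 10.72 in vehicle. Its difference of 1.03 ± 0.14 (adjusted p = 0.000858; 0.91 without that array) therefore set a dip at the lower doses against levels at or above vehicle. Of the 14 genes measured in heme synthesis and breakdown 2 rose (Alas1 and Hmox1) and 1 fell (Alas2, the form of red blood cell precursors; adjusted p = 0.0519 without 440 mg/kg replicate 3); the list's median was 0.06.

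Amino acid breakdown fell in several members: of 49 measured genes of this list and the urea cycle, 8 fell and 1 rose, with and without 881 mg/kg replicate 2, and the median was -0.07. Oat, ornithine aminotransferase, lay at 8.71, 8.85 and 9.19 at the higher doses and at 9.22, 10.40 and 11.28 at the lower doses, with vehicle at 10.63 to 11.47. The 220 mg/kg arrays (9.22, 9.82 and 9.63) filled the gap between 110 mg/kg (10.55, 10.71 and 10.40) and the higher doses. It fell by 1.35 on the log2 scale, a 2.54-fold drop (SE 0.17, adjusted p = 0.000787; -1.31 without that array). Gnmt, glycine N-methyltransferase, fell (-0.73 ± 0.09, adjusted p = 0.000795), as did Kynu, kynureninase (-0.72 ± 0.09, adjusted p = 0.000787), and Hal, histidine ammonia-lyase (-0.50 ± 0.09, adjusted p = 0.00677). Oat and Kynu were not yet separate from the higher doses by much: their closest arrays lay at 9.19 against 9.22 and at 11.51 against 11.74.

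Enzymes of hepatocytes near the central vein fell in part. Of 13 measured pericentral markers 7 fell and none rose (8 and 0 without 881 mg/kg replicate 2), and the median was -0.34, the same within 0.01 at 440 and at 881 mg/kg. The list mean was 9.66 to 9.79 on the higher-dose arrays, 9.81, 10.02 and 9.83 at 220 mg/kg, 10.15 to 10.36 at 55 and 110 mg/kg and 9.93 to 10.18 in vehicle. Besides Oat and Cyp1a2, Glul, glutamine synthetase of the innermost pericentral ring, fell by 0.62 on the log2 scale (11.59, 11.87 and 12.11 against 11.87, 12.49 and 13.05; SE 0.10, adjusted p = 0.00406); another Glul probe set read -0.81 and was not called (adjusted p = 0.103). Among 14 periportal markers 1 rose and 2 fell, with a median of -0.04. Hal fell, Asl, argininosuccinate lyase, fell by 0.30 (call ended on leaving out any 1 of 13 of the 15 arrays, highest adjusted p = 0.12; another probe set -0.55, adjusted p = 0.0206), and Ctsc rose by 0.39 (adjusted p = 0.0593 without 440 mg/kg replicate 2; another probe set 0.145, not called). Of 13 hepatocyte markers Apoa1 rose, a call that ended without any 1 of 7 arrays (highest adjusted p = 0.0941), and none fell (median -0.03).

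Bile acid genes changed both ways: of 28 measured, 4 rose and 7 fell, with a median of -0.06 (3 and 6 without 881 mg/kg replicate 2). The rises were the pumps Abcc2, Abcc3 and Abcc4 and the repressor Nr0b2 (1.0 ± 0.25, adjusted p = 0.0316; the call ended without any 1 of 9 arrays, highest adjusted p = 0.0808). Amacr, which epimerises branched side chains, fell by 0.63 on the log2 scale (12.58, 12.73 and 12.94 against 12.97, 13.35 and 13.61; SE 0.07, adjusted p = 0.000511). Its vehicle arrays, 12.99 to 13.08, lay between the pools and nearer the higher doses. Abcg8, part of the sterol exporter of the bile canaliculus, fell by 0.87 (adjusted p = 0.0204; 0.0551 without 440 mg/kg replicate 2). Cyp7a1, which starts the main route from cholesterol to bile acids, was not called (-0.23 ± 0.21, adjusted p = 0.565). Of 24 drug and conjugate transporters 4 rose and 6 fell (median -0.05), again with the same counts without 881 mg/kg replicate 2.

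The largest fall among these transporters was that of Slc6a6, which takes up taurine. It read 10.09 to 10.73 in vehicle, 9.11, 8.26 and 8.0 at 55 mg/kg, 8.01, 7.35 and 7.35 at 110 mg/kg, 7.12, 8.19 and 7.86 at 220 mg/kg, 6.62, 6.43 and 6.28 at 440 mg/kg and 6.59, 6.23 and 6.19 at 881 mg/kg. Most of its decline thus lay between vehicle and the lower doses, and the higher-dose arrays formed a narrow band below them. The difference between the pools was -1.53 ± 0.19 (adjusted p = 0.000787; -1.50 without that array; another probe set -0.65, adjusted p = 0.0148). Slc22a8, an organic anion transporter, fell by 0.90 (SE 0.11, adjusted p = 0.000787), with -1.37 at 881 mg/kg and -0.44 at 440 mg/kg against the lower pool.

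Male-biased genes were the other group with large falls: 8 of 24 measured fell and none rose (7 and 0 without 881 mg/kg replicate 2). Their median was -0.25. Obp3, a lipocalin of the alpha-2u-globulin family, lay at 10.71, 11.70 and 12.57 at the higher doses, at 13.32, 13.66 and 14.45 at the lower doses and at 12.79 to 13.62 in vehicle. Its lower-dose arrays were mostly at or above vehicle and every higher-dose array was below both. It fell by 2.02 on the log2 scale (SE 0.18, adjusted p = 6.9e-05), a 4.06-fold drop, and -1.88 without that array. Stac3, known as an adaptor of muscle excitation and here on the male-biased list, lay at 6.98, 7.55 and 8.50 against 8.80, 10.33 and 11.53, with vehicle at 10.08 to 11.73. Its difference was -2.43 ± 0.33 (adjusted p = 0.000999; -2.33 without that array). Dhrs7l1, a short-chain dehydrogenase, fell by 2.37 (SE 0.36, adjusted p = 0.0022), and its pools overlapped: 1 array at 440 mg/kg read 12.27, above the lower-dose minimum of 11.46.

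Igf1, the growth factor that growth hormone raises in liver, fell by 0.25 on the log2 scale (SE 0.06, adjusted p = 0.0189; 0.0536 without 440 mg/kg replicate 3), and its other probe sets read -0.51 (adjusted p = 0.00918) and -0.46 (adjusted p = 0.0462). Cish, a feedback inhibitor of growth hormone signalling on the same list, read 8.72, 6.73 and 6.82 at 440 mg/kg, 6.51, 6.91 and 8.67 at 881 mg/kg, 8.17, 8.69 and 9.80 at the lower doses and 6.61 to 6.83 in vehicle, so that 4 of the 6 higher-dose arrays were at vehicle level and 2 were not (-1.30 ± 0.36, adjusted p = 0.047); the call ended on leaving out any 1 of 13 of the 15 arrays (highest adjusted p = 0.125), and another probe set was not called (-0.94, adjusted p = 0.112). Cyp2c11, the main male-specific P450 of rat liver, was not called (-0.24 ± 0.08, adjusted p = 0.0857). On the female-biased list 3 of 20 rose, Abcc3, Akr1b7 and Sult2a6, and 2 fell, Sult1c2 and Hao2 (median 0.09); Hao2 stands on both lists. Sult2a6 lost its call without any 1 of 9 arrays (highest adjusted p = 0.0797).

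**Figure D3:**
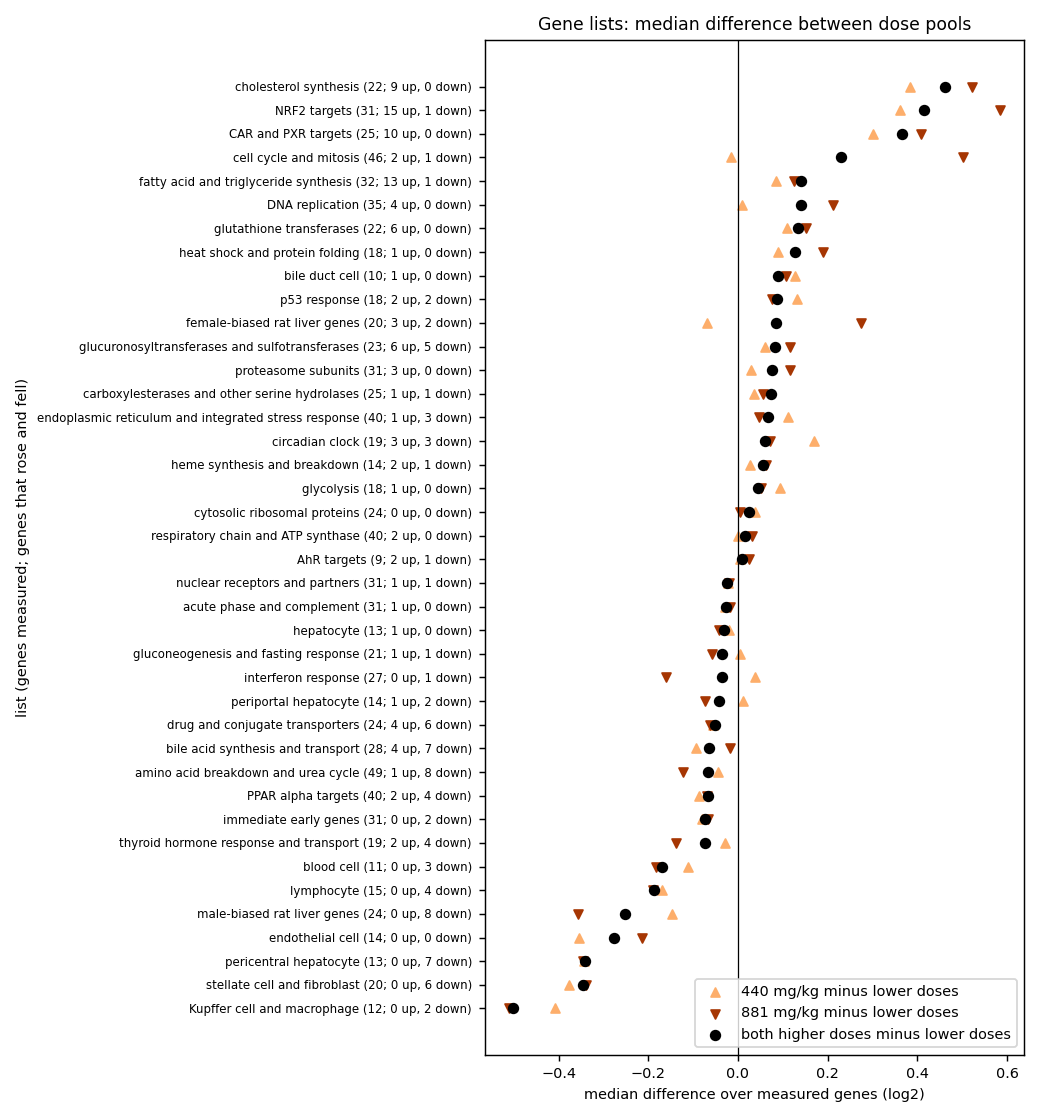
Median difference in log2 expression (x axis) over the measured genes of each of 40 lists (y axis, with the number measured and the numbers that rose and fell); black circles set both higher doses against the lower pool, and triangles set 440 mg/kg (pale, up) or 881 mg/kg (dark, down) against it. The medians run from 0.46 for cholesterol synthesis to -0.50 for Kupffer cell markers, and the triangles of the cell cycle list lie farthest apart.

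Clock genes changed in both directions. Of 19 measured clock genes 3 rose and 3 fell, with a median of 0.06 (counts of 2 and 2 without 881 mg/kg replicate 2). Npas2, a partner of Bmal1, read 8.65 to 8.83 in vehicle, 7.20, 7.59 and 7.91 at the lower doses and 5.43, 6.08 and 7.04 at the higher doses, a fall of 1.49 between the pools (SE 0.20, adjusted p = 0.000842; -1.32 without that array). Bmal1 stepped down in the same order, 7.90 to 8.70, then 6.75, 7.01 and 7.49, then 5.56, 6.30 and 7.22 (-0.74 ± 0.17, adjusted p = 0.0178). Nr1d1, a repressor of Bmal1, was 6.39 to 7.72 in vehicle, 8.37, 9.05 and 9.31 at the lower doses and 7.61, 8.15 and 8.92 at the higher doses; its fall of 0.66 lost the call without any 1 of 11 arrays (highest adjusted p = 0.11). Dbp, an output gene, was 5.73 to 6.34 in vehicle and far higher in every dosed array, but did not change between the pools by this test (0.30 ± 0.21, adjusted p = 0.434). The times of dosing and of tissue collection within the day are not known from the sources used here, and their part in these values was not tested. The letters CACGTG, a palindrome bound by clock factors, were in 3 of 16 clock promoters (18.8%), against 8.9% of measured genes and 6.4% of all windows.

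The 2 higher doses were also compared with the lower pool one at a time; these comparisons share their lower arrays. At 440 mg/kg 75 genes changed (0.528%), 34 up (0.239%) and 41 down (0.288%), and at 881 mg/kg 1071 changed (7.53%), 675 up (4.75%) and 396 down (2.79%). The counts moved with single arrays. Without 881 mg/kg replicate 2 they were 166 (1.17%) and 605 (4.26%), and the count at 440 mg/kg was 10, 21 or 19 without 440 mg/kg replicate 1, 2 or 3; by the model it was 46 with 1 mean per pool, 123 with all 20 arrays fitted, 247 with array weights, and 158 or 128 with the Gapdh or beta-actin difference as covariate. Among genes that rose between the pools the median difference from the lower pool was 0.27 at 440 mg/kg and 0.45 at 881 mg/kg, and among those that fell it was -0.32 and -0.42. Set directly against each other, 881 and 440 mg/kg differed in 1 gene, Osgin1 (0.00703%), by limma with the 15 dosed arrays, with 1331 genes at an unadjusted p under 0.05. Without 881 mg/kg replicate 2 the number was 54 (0.38%); it was 0 on leaving out any 1 array at 55 mg/kg, replicates 1 or 3 at 110 mg/kg, replicate 1 at 440 mg/kg or replicate 3 at 881 mg/kg, 15 without 110 mg/kg replicate 2, 5 without 881 mg/kg replicate 1, 3 without 440 mg/kg replicate 2 and 2 without 220 mg/kg replicate 2. With all 15 dosed arrays it was 111 with array weights, and 24 or 6 with the Gapdh or beta-actin covariate, and it was 37 with all 20 arrays fitted. Among the 3 lower doses limma's F test called 0 genes (0.0%), with 383 at an unadjusted p under 0.05 and a smallest adjusted p of 0.9997; without 220 mg/kg replicate 2 it called 1.

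Many changed genes without overlap differed by under 0.25 between 881 and 440 mg/kg: 80 of the 119 rises and 59 of the 73 falls. That share among all genes was not counted, so no trait of the changed genes is read from these numbers. Lack of overlap already places both higher doses on the same side of the lower pool. For Mknk2, a kinase of the translation factor eIF4E, the 440 mg/kg arrays read 10.05, 10.20 and 10.26 and the 881 mg/kg arrays 10.03, 10.31 and 10.34, against 8.76, 9.04 and 9.57 at the lower doses. Its rise was 1.08 ± 0.11 (adjusted p = 0.000192), and the 95% interval of 881 minus 440 mg/kg ran from -0.31 to 0.42. The interval was -0.59 to 0.55 for Oat, -0.72 to 0.50 for Slc6a6 and -0.68 to 0.64 for Npas2, so that differences of up to about that size are not excluded by these arrays.

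Other changed genes met a rule on ranges at only 1 of the 2 higher doses. The rule is no test between these doses. The 440 mg/kg mean lay within the range of the lower-dose arrays and all 881 mg/kg arrays beyond it for 113 rises and 66 falls. How many of all genes meet this rule was not counted. With all 15 dosed arrays limma called only Osgin1 between 881 and 440 mg/kg. Serpina7, the thyroxine-binding globulin that carries thyroid hormone in blood, read 8.95, 8.59 and 8.50 at 881 mg/kg, 9.95, 10.60 and 10.65 at 440 mg/kg, 9.83, 10.56 and 11.39 at the lower doses and 10.41 to 11.69 in vehicle. Only the 881 mg/kg arrays were low, and the pools differed by -1.13 ± 0.22 (adjusted p = 0.00883; -1.11 without 881 mg/kg replicate 2). Its difference from the lower pool was -1.99 at 881 mg/kg and -0.27 at 440 mg/kg, and 881 minus 440 mg/kg was -1.72 (interval -2.45 to -1.0, adjusted p = 0.0934). On the thyroid hormone list 2 of 19 rose and 4 fell, with a median of -0.07 (2 and 3 without 881 mg/kg replicate 2). Cpt1a, which admits fatty acids to mitochondria and was picked here after its values were seen, read 11.65, 11.67 and 11.04 at 881 mg/kg against 12.47, 12.01 and 12.28 at 440 mg/kg and 12.05, 12.56 and 12.79 at the lower doses (-0.65 ± 0.11 between the pools, adjusted p = 0.0041). Its 881 minus 440 mg/kg difference was -0.80 and did not pass the test (adjusted p = 0.108).

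The reverse pattern was looked for after the values were seen, and the genes in this paragraph were picked the same way. Every 440 mg/kg array lay beyond the lower-dose arrays, and the 881 mg/kg mean within their range, for 15 rises and 20 falls. The share of all genes that meet this rule was not counted either. Pdk4, the kinase that shuts off pyruvate oxidation in fasting, read 7.25, 7.38 and 6.82 at 440 mg/kg, 8.22, 9.08 and 9.84 at 881 mg/kg, 8.29, 9.10 and 9.50 at the lower doses and 9.85 to 10.63 in vehicle. Its 440 mg/kg arrays were thus the lowest of all 20, with a difference of -1.87 from the lower pool against 0.03 at 881 mg/kg, and its call between the pools ended without 440 mg/kg replicate 3 (adjusted p = 0.058; another probe set differed by -0.38, adjusted p = 0.0287). Osgin1, whose call between the pools ended without any 1 of 11 arrays (highest adjusted p = 0.115), read 10.28, 10.73 and 10.90 at 440 mg/kg and 11.61, 12.15 and 12.19 at 881 mg/kg, against 11.44, 11.76 and 12.00 at the lower doses, and 881 exceeded 440 mg/kg by 1.35 ± 0.18 (adjusted p = 0.0253). Lpin1, a phosphatidate phosphatase and coactivator raised in fasting, read 11.71, 10.97 and 11.42 at 440 mg/kg, 9.69, 10.29 and 9.95 at 881 mg/kg and 9.33, 9.96 and 10.50 at the lower doses. Its 440 mg/kg arrays were in the vehicle range of 10.30 to 11.74, and 881 minus 440 mg/kg was -1.39 ± 0.22 (adjusted p = 0.0643). Zfp354a, a zinc finger protein, read 12.19, 11.82 and 12.03 at 440 mg/kg against 10.89, 10.98 and 9.58 at 881 mg/kg and 8.29, 9.84 and 11.21 at the lower doses. Between 881 and 440 mg/kg, neither Pdk4 (1.90, adjusted p = 0.0687) nor Zfp354a (-1.53, adjusted p = 0.28) passed the test. A pooled difference of such a gene (-0.92 for Pdk4, 0.74 for Lpin1, 1.46 for Zfp354a) is a mean of unlike doses.

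**Figure D4:**
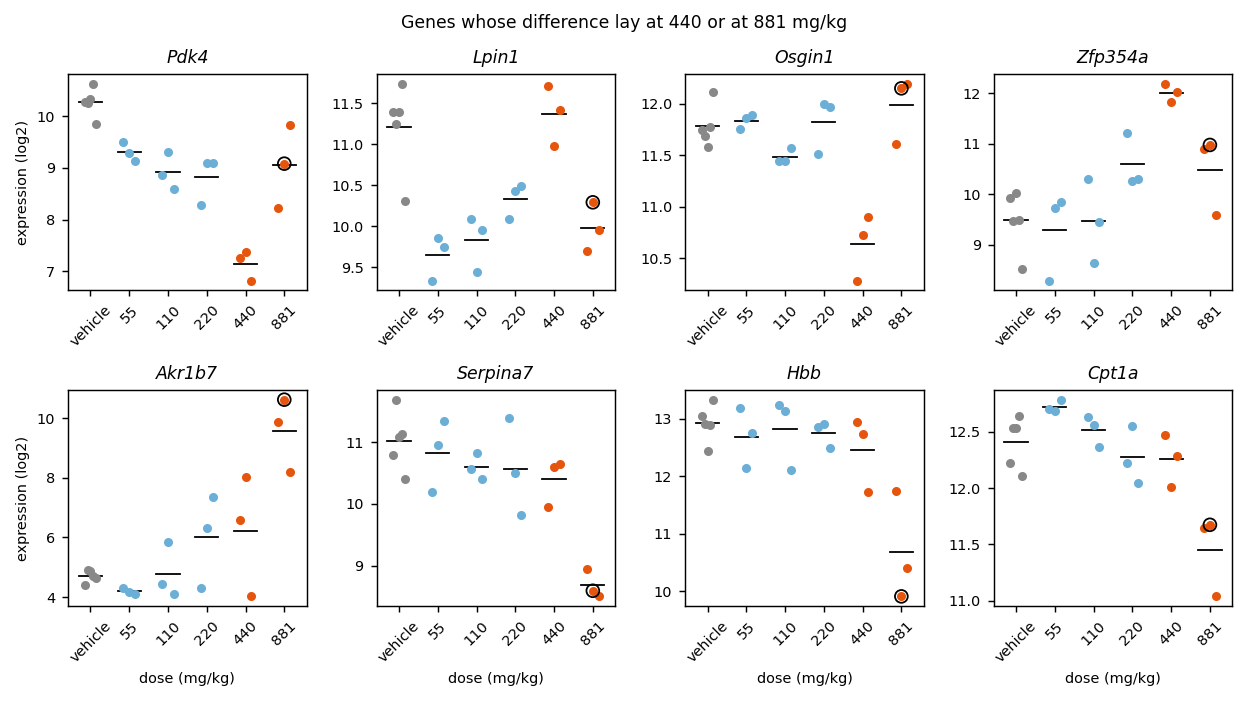
Log2 expression of 8 genes on each of the 20 arrays (y axis) by dose (x axis, mg/kg), with colours, bars and the circled array as in the plot of 12 genes by dose. In the upper row the 440 mg/kg arrays depart from the other doses, as in Pdk4 (7.25, 7.38 and 6.82). In the lower row it is mostly the 881 mg/kg arrays, as in Serpina7 (8.95, 8.59 and 8.50). In Akr1b7 and Hbb an array at 440 mg/kg lies close to the nearest 881 mg/kg array.

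For a few genes the lower pool was the one away from vehicle. Among changed genes without overlap, 6 that rose and 13 that fell had a vehicle mean nearer to the higher than to the lower doses. Of rises without overlap 4.2%, of such falls 12.3% and of all genes 9.3% had it between the pools, nearer the higher one. It lay beyond the higher doses for 0.8%, 5.5% and 25.4%. Tfrc was the largest of those 6 rises. Pdzrn3, a ubiquitin ligase, was the largest such fall, with 7.75, 8.19 and 8.53 at the higher doses, 8.55, 8.86 and 9.26 at the lower doses and 7.47 to 8.35 in vehicle (-0.75 ± 0.10, adjusted p = 0.000787). Oaf fell by 0.53 (SE 0.07, adjusted p = 0.00107), from 11.47, 11.79 and 12.16 back to 11.05, 11.30 and 11.43, with vehicle at 11.01 to 11.29.

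Genes of cell division differed between arrays of the top dose. Of 46 measured cell cycle genes 2 rose and 1 fell with all arrays, with a median of 0.23, and 18 rose and none fell without 881 mg/kg replicate 2, where the median was 0.45. With all arrays the 6.5% of the list that was called was near the 6.22% of all genes tested. Without that array 3.0% of all genes rose. The median difference of the list from the lower pool was -0.015 at 440 mg/kg and 0.50 at 881 mg/kg. The list mean was 7.23 and 7.13 in 881 mg/kg replicates 1 and 3 but 6.16 in replicate 2, the array with the high Gapdh 3' to 5' difference, against 6.14 to 6.65 in all other arrays. Mki67, a marker of dividing cells, read 7.44, 5.77 and 7.27 at 881 mg/kg, 5.41, 6.03 and 5.35 at 440 mg/kg and 5.02, 5.35 and 6.20 at the lower doses. It did not pass the test with all arrays (0.73 ± 0.25, adjusted p = 0.102) and rose without that array (0.99, adjusted p = 0.0122). The part of RNA quality in this split was not tested. Cenpk, a kinetochore protein, rose by 0.45 ± 0.08 (adjusted p = 0.00686), as did Kif11, a spindle motor (0.42 ± 0.09, adjusted p = 0.0144), although another Kif11 probe set read 0.024.

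DNA replication genes were less divided: 4 of 35 rose and none fell, with the same counts without that array and a median of 0.14 (0.008 at 440 mg/kg and 0.21 at 881 mg/kg). The list mean was 7.29, 7.18 and 7.35 at 881 mg/kg, including replicate 2, and 6.93 to 7.14 at the other 4 doses. Rfc2, a clamp loader subunit, rose by 0.34 ± 0.07 (adjusted p = 0.0153). In the promoter windows, the letters TTTGAA of a cell cycle element were in 23 of 37 cell cycle genes (62.2%, against 12.3% of measured genes) and CCAAT in 27 of 37 (73.0%, against 37.3%). Of the 2 risen cell cycle genes with a window, 0 held TTTGAA and both held CCAAT. For DNA replication, the E2F-type letters TTTCCCGC were in 4 of 32 windows (12.5%, against 1.8%) and TTTGGCGC in 8 of 32 (25%, against 0.8%), and either motif in 0 of the 3 risen members with a window. All were searched on both strands, each motif on its own.

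Stress and housekeeping lists held 0 to 4 calls each. The p53 response had 2 rises and 2 falls among 18 (22.2%, against 6.22% of all genes tested; median 0.09), including Phlda3 (-0.48 ± 0.10, adjusted p = 0.0106) and Mdm2 (0.35 ± 0.07, adjusted p = 0.0137; other probe sets 0.36, adjusted p = 0.0253, and -0.099, adjusted p = 0.715), while Cdkn1a was not called (0.06 ± 0.13, adjusted p = 0.834; another probe set -0.17, adjusted p = 0.319). Of 40 genes of endoplasmic reticulum and integrated stress 1 rose and 3 fell (10.0%; median 0.07); Ddit3, a transcription factor of that response, fell by 0.46, a call that ended without any 1 of 6 arrays (highest adjusted p = 0.0721). Heat shock and protein folding had 1 rise among 18 (median 0.13), the acute phase and complement 1 among 31 (median -0.03), proteasome subunits 3 among 31 (9.7%; median 0.08; 1 without 881 mg/kg replicate 2) and cytosolic ribosomal proteins 0 among 24 (median 0.02; 0 without it). The acute phase call was Il6r, the interleukin-6 receptor, which was high only at 440 mg/kg (11.22, 11.04 and 11.03, against 10.51, 10.46 and 10.34 at 881 mg/kg). Its 881 minus 440 mg/kg difference was -0.66 and did not pass the test (adjusted p = 0.0708). Interferon genes had 1 fall among 27 (median -0.04), immediate early genes 2 falls among 31 (median -0.07), and nuclear receptors and partners 1 rise, of Nr0b2, and 1 fall among 31 (median -0.02).

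Markers of cells other than hepatocytes were mostly lower in the higher pool. All 12 Kupffer cell and macrophage markers lay below 0 with a median of -0.50, and 2 fell, Clec4f (-0.51 ± 0.13) and Lyz2 (-0.55 ± 0.15), calls that ended without any 1 of 5 arrays (highest adjusted p = 0.0744) and of 11 arrays (highest adjusted p = 0.105). The log2 of their summed level was 13.09 to 13.77 on the higher-dose arrays and 13.58 to 14.51 on the lower-dose arrays, overlapping ranges. Of 20 stellate cell and fibroblast markers 6 fell and none rose (4 and 0 without 881 mg/kg replicate 2). Their median was -0.34, with summed levels of 12.35 to 12.96 against 12.83 to 13.47. Lox, which crosslinks collagen, was flat at 4.80, 5.11 and 5.59 at the higher doses and scattered from 5.28 to 9.98 at the lower doses (-2.02 ± 0.49, adjusted p = 0.026); the call ended on leaving out replicates 2 or 3 at 440 mg/kg, or replicate 2 at 881 mg/kg (highest adjusted p = 0.06), and another probe set was not called (-1.68, adjusted p = 0.0511). Ecm1 fell by 0.57 on the log2 scale (adjusted p = 0.0199; 0.0604 without 440 mg/kg replicate 2).

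Endothelial markers had no calls among 14, with all 14 below 0, a median of -0.28 and summed levels of 12.20 to 13.28 against 12.46 to 13.46. Of 15 lymphocyte markers 4 fell, including Cd8a (-0.38 ± 0.07, adjusted p = 0.0066), whose other probe sets were not called (-0.23, adjusted p = 0.19, and -0.04, adjusted p = 0.848). The list had a median of -0.19 and summed levels of 11.06 to 11.96 against 11.64 to 13.21. Of 11 blood cell markers 3 fell (2 without 881 mg/kg replicate 2). Their median was -0.17, with summed levels of 11.42 to 13.54 against 12.87 to 13.84. Hbb, beta globin, read 11.75, 9.91 and 10.41 at 881 mg/kg, 12.94, 12.73 and 11.72 at 440 mg/kg and 12.11, 12.85 and 13.24 at the lower doses, so that all 3 arrays at 881 mg/kg and 1 at 440 mg/kg lay below every lower-dose array (-1.18 ± 0.28 between the pools, adjusted p = 0.0253); the call ended on leaving out replicate 1 at 110 mg/kg, replicate 3 at 440 mg/kg, or replicates 2 or 3 at 881 mg/kg (highest adjusted p = 0.0671). Among 10 bile duct markers Epcam rose (0.60 ± 0.11, adjusted p = 0.00558) and none fell (median 0.09). In whole liver RNA, fewer cells of a type and less RNA per cell cannot be told apart. Values of this scale have no true zero, so that no marker can be called absent, and the part of these cell types in the other differences was not tested.

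**Figure D5:**
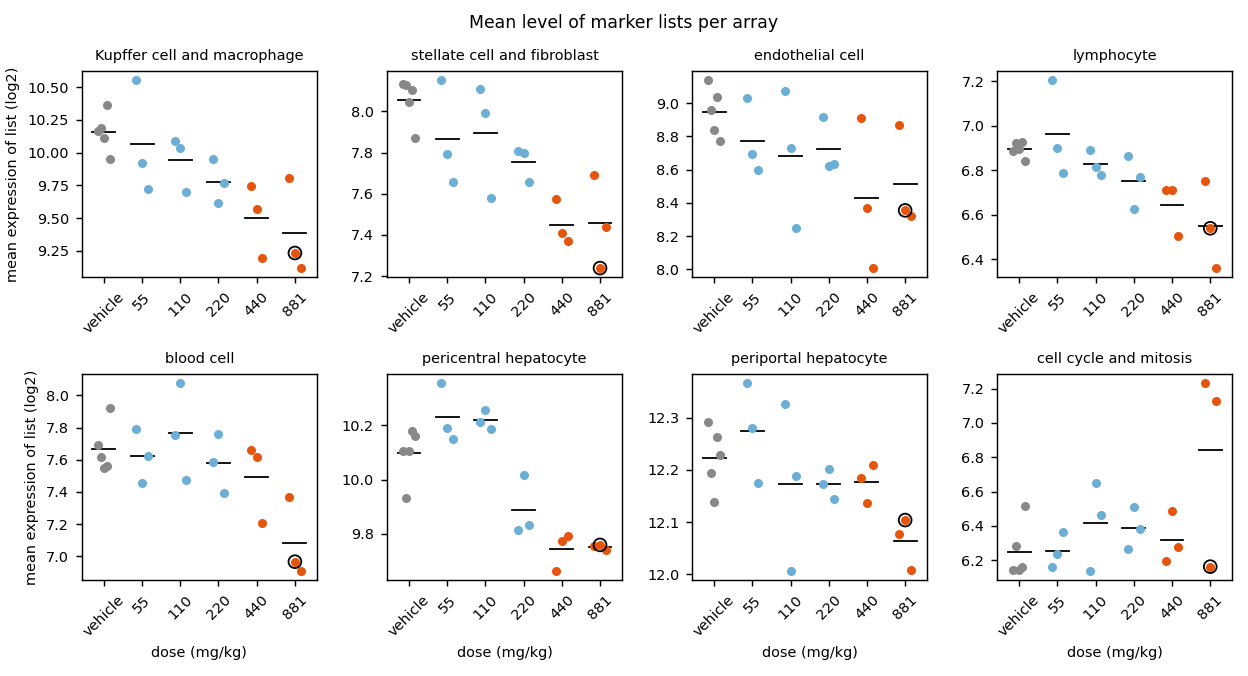
Mean log2 expression of 8 gene lists on each of the 20 arrays (y axis) by dose (x axis, mg/kg), with vehicle grey, lower doses blue, higher doses orange, group means as bars and 881 mg/kg replicate 2 circled. The pericentral list falls between 110 mg/kg (10.19 to 10.26) and 440 mg/kg (9.66 to 9.79), and the cell cycle list is high in 2 of the 3 arrays at 881 mg/kg.

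Several genes known for responses to foreign compounds or stress did not pass the test between the pools. Egr1, an immediate early factor, read 6.4, 7.46 and 7.84 at the higher doses and 6.90, 7.92 and 9.46 at the lower doses (-0.57 ± 0.21, adjusted p = 0.119), all below the vehicle range of 9.47 to 10.61. Myc (0.31 ± 0.25, adjusted p = 0.502), Cyp3a9 (-0.87 ± 0.38, adjusted p = 0.191) and Bche, the plasma cholinesterase that organophosphates can inhibit (-0.01 ± 0.10, adjusted p = 0.977), were not called either. Bche had levels of 6.43, 6.54 and 6.86 against 6.18, 6.69 and 6.91, with vehicle at 6.45 to 6.60. Its transcript was measured here, not its enzyme activity. Dusp1, a phosphatase of the immediate early list, fell by 1.26 (adjusted p = 0.02), but its highest lower-dose array, 110 mg/kg replicate 1, read 14.13, and the call ended without 440 mg/kg replicate 2 or 3 (highest adjusted p = 0.0596). Another Dusp1 probe set was not called (-1.16, adjusted p = 0.132).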

How the data were processed

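Total RNA of rat liver was measured on Affymetrix arrays, 1 per sample. Per the submitters' processing notes, the authors used RMA, version and settings not given in the sources used here, and deposited a table that holds 1 log2 expression value per probe set and array, a scale judged from the range of its values. RMA in general corrects background, equalises distributions between arrays and compresses low signals.

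Of 31099 probe sets, 57 controls were set aside. The platform annotation at GEO, possibly outdated, named 1 gene for 20826 of the 31042 left, several for 436 and none for 9780; only the first kind was used, and 20758 of these matched a RefSeq gene (GRCr8). Of 14217 genes 4525 had several probe sets, and the one of highest mean across the 20 arrays stood for the gene. Values given for another probe set come from the same fit over single-gene probe sets, adjusted over those. No 2 arrays shared more than 0.0226% of values.

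With limma 3.58.1 in R 4.3.3, 1 mean per dose was fitted to the 15 dosed arrays without covariates, and (440 + 881)/2 minus (55 + 110 + 220)/3, each higher dose against the lower pool, 881 against 440 mg/kg and an F test among the lower doses were tested (eBayes, two-sided, 10 residual degrees of freedom). No dim genes were filtered. On simulated data for the pooled comparison over all 14217 genes, 98 of 100 changes of 1 log2 unit and 77 of 100 of 0.5 were recovered. The noise was drawn independently for each array around 1 mean per gene. Shared deviations of arrays and an array of poorer RNA quality were thus not modelled, and recovery under them is not given. Permutation tests went through every split in Python 3.11.15 with NumPy 2.4.6. The t quantile of the 95% intervals came from SciPy 1.17.1, and figures from matplotlib 3.10.9.

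The comparison, the 40 gene lists (959 of 1119 members measured) and the rule for named genes were chosen with earlier results of these data known. The rule named the 15 largest rises and falls without overlap, up to 3 called members of each list, 5 genes per direction that were level between the higher doses, that departed only at 881 mg/kg or that lay nearer vehicle at the higher doses, the 5 smallest p-values among the lower doses, and a preset group of genes; further members of a list or promoter set were picked after their values were seen. Alternatives changed the error model, arrays, block, weights, RNA quality covariates, prior, probe set choice, filter and scaling.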

Additional observations from a re-analysis of the deposited data

Results flagged for a closer look

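Within the vehicle, lower-dose and higher-dose sets, 25 of 378 sets of values for named genes held an array far from the others, where chance alone gives about 1 in 20. Among the higher-dose arrays, 881 mg/kg replicate 2 was the distant one for Sbspon (9.21), Car3 (11.93, the other 5 between 13.47 and 14.13), Abcg8 (5.10), Dact2 (8.79) and Rhobtb1 (9.22). The same array was distant in its Gapdh 3' minus 5' difference (5.24), its median level (6.31) and its median correlation with the other arrays (0.983). At 440 mg/kg, replicate 1 was distant for Odc1 (11.05) and Egr1 (6.4), and replicate 2 for Nr2f1 (5.09).

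Among the lower-dose arrays, 110 mg/kg replicate 1 was distant for Dusp1 (14.13) and Nedd4l (8.79), 220 mg/kg replicate 1 for Rhobtb1 (7.55), 220 mg/kg replicate 3 for Sult1c2 (7.48) and 55 mg/kg replicate 1 for RT1-Da (11.86). In vehicle, replicate 2 was distant for Rcan2 (7.78), Cldn1 (9.50), Lss (9.70), Nr1d1 (7.72) and Rprm (7.47), replicate 4 for Gsta4 (11.53) and Tsc22d1 (12.0), replicate 1 for Psmd7 (10.49) and Rassf1 (7.36), replicate 3 for Epcam (8.96) and Chka (11.11), and replicate 5 for Lyz2 (11.44).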

How the results depend on the processing

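For the 126 named genes, 2978 of 3396 values under 27 alternatives kept their side of the threshold, 407 lost the call and 11 gained one. Of the 113 called genes 61 kept the call in all 27, and 0 changed sign. Changes of sign among genes not called were not counted. Of 1080 list medians 1053 stayed within the spread between arrays. Leaving out 1 array at a time gave 458 to 963 changed genes between the pools (258 to 539 rose, 200 to 424 fell), 10 to 166 at 440 mg/kg, 605 to 1048 at 881 mg/kg, 0 to 54 between 881 and 440 mg/kg, and 0 to 1 among the lower doses. With the replicate number as a block the counts were 1527 (804 up, 723 down) between the pools, 186 at 440 mg/kg, 1650 at 881 mg/kg and 21 between the higher doses. Arrays of the same number deviated together in part (correlation -0.02 to 0.348 over 30 pairs, median 0.189). For arrays of different numbers the correlation was lower (-0.282 to 0.179 over 60 pairs, median -0.113). Of 15 arrays 14 correlated best with their own number. The labels do not say what a number shares, so this is a hint from the data and not from the design. At 440 mg/kg against the lower pool, 46 genes changed with 1 mean per pool, 123 with all 20 arrays fitted, 247 with array weights, 158 with the Gapdh and 128 with the beta-actin difference as covariate, against 75. Between 881 and 440 mg/kg the counts were 37 with all 20 arrays, 111 with array weights, 24 with the Gapdh and 6 with the beta-actin covariate, against 1. The cause of these shifts was not tested. The number of arrays limits all of these counts.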
